A study of Mus musculus with 6 samples.

Results

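The Kmt2 family comprises the 5 genes Kmt2a, Kmt2b, Kmt2c, Kmt2d and Kmt2e, and its DNA methylation was measured in the embryonic mouse cerebral cortex after loss of Uhrf1. The family was chosen by a measured value of the same contrast, the difference in methylation between cKO and control in an exon of Kmt2d, which was one of the largest in the data. The other 4 genes were taken in as its relatives. Values of Kmt2d are therefore a description, with no test, and tests are given for the other members only. Of 646645 nuclear cytosines read at least 6 times in every library, 327 lay between 1000 bp upstream of the 5' end and the 3' end of these 5 genes, out of 21951 protein-coding genes annotated.

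The compared tissue was the entire cortex of C57BL/6 embryos at embryonic day 16. The conditional knockout (cKO) group held 3 libraries of Emx1 Cre/+ Uhrf1 -/- embryos, and the control group 3 libraries of heterozygous Emx1 Cre/+ Uhrf1 +/- embryos. Both groups thus carried Emx1-Cre, which recombines the floxed Uhrf1 allele in the dorsal telencephalon, so that cortical cells of other origin kept their alleles, and the controls also lacked 1 copy. Libraries were made by Ox-RRBS, a bisulfite sequencing method for CpG-rich fragments, in which the enzyme MspI cuts at CCGG, oxidation removes the 5-hydroxymethylcytosine signal, and a cytosine still read as C after bisulfite counts as 5-methylcytosine.

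Members of the family carry a SET domain, and most of them place methyl groups on lysine 4 of histone H3 (H3K4). Kmt2a and Kmt2b act mainly at promoters and bind unmethylated CpGs through a CXXC domain, Kmt2c and Kmt2d mark enhancers, and Kmt2e reads H3K4 methylation through a PHD finger and has no firmly established methyltransferase activity. In mammals, promoters within CpG islands are normally free of DNA methylation while gene bodies carry it, and Uhrf1 brings the maintenance methyltransferase Dnmt1 to newly replicated DNA.

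The libraries held 18238737 to 31019082 reads over listed cytosines, with a median coverage of 13 to 17 reads. The library labelled control replicate 1 stood apart from the other controls: the mean level over the common cytosines was 15.6% there, against 15.8% to 19.6% in the cKO libraries and 38.9% and 39.4% in control replicates 3 and 2. Whether its genotype label is right was not tested, and what a difference with or without it measures depends on that label. It keeps its label below. The region and window tests are given with and without it, and differences named as from control replicates 2 and 3 leave it out. Leaving it out rests on the outcome measured, so calls made without it are conditional on that choice. A level is a mean over all cells of the cortex, so a change in cell composition and a change within cells cannot be told apart. The labels do not say whether embryos shared a litter, and the tests measure only how far these libraries differ among themselves.

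The sequences below are examples of 100 bp, from exons except for the last, which lies upstream of Kmt2d. They are printed on the coding strand from the GRCm38 genome with the C and G of each measured CpG in capitals. The first is the 100 bp window of Kmt2d with the largest difference between the cKO libraries and control replicates 2 and 3, in exon 52 of 55 of the longest coding transcript (chr15:98835301-98835400, minus strand). The second, in exon 24 and the intron after it (chr15:98855501-98855600), had the smallest difference among the 6 windows of Kmt2d with at least 4 cytosines, at least 50 reads in every library and a mean of at least 50% in control replicates 2 and 3. Some windows of Kmt2d outside these limits had smaller differences. Those of Kmt2a (chr9:44848501-44848600, minus strand, exon 3) and Kmt2b (chr7:30583201-30583300, minus strand, exon 8) were the only windows of these genes within the same limits. The last line is an unmethylated stretch upstream of Kmt2d for contrast (chr15:98872101-98872200), which was methylated at 0 to 1.69% in every library.
Kmt2d exon 52: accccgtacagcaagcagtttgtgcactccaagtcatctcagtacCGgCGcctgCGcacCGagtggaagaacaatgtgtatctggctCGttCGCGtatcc
Kmt2d exon 24: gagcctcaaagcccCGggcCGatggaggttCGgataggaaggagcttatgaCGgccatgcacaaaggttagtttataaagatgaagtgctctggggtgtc
Kmt2a exon 3: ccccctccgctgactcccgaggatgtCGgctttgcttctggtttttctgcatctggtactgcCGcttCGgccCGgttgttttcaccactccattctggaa
Kmt2b exon 8: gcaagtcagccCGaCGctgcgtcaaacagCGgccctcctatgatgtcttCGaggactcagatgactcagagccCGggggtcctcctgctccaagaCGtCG
Kmt2d upstream: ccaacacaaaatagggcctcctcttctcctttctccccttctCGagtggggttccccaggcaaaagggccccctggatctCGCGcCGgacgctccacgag

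In the Kmt2d window of exon 52, 14.1%, 18.6% and 9.96% of reads were methylated in cKO replicates 1, 2 and 3, against 16.5%, 89.3% and 93.8% in control replicates 1, 2 and 3. Every cKO library lay below control replicates 2 and 3, while control replicate 1 lay among the cKO libraries. The cKO mean was 14.2% ± 4.32 (SD, n = 3), against 91.5% ± 3.12 (SD, n = 2) in control replicates 2 and 3, a difference of -77.3 percentage points (-52.3 points with all 3 controls). All 7 measured CpGs of the window shared in it, with cKO means between 12.4% and 20.02% against 84.6% to 97.1% in control replicates 2 and 3. They lie on 1 strand and had near-equal coverage within a library, 11 to 40 reads over all libraries, so neighbouring CpGs may have been read on the same fragments and are not independent. Of 7092 autosomal windows that met the same limits, 1 had a larger difference, as had 630 (0.381%) of the 165155 windows selected only for a mean of at least 50% in control replicates 2 and 3. Here lies the value by which the family was chosen.

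At the other end of the range, the Kmt2d window of exon 24 stood at 40.1%, 28.1% and 17.1% in the cKO libraries, against 30.9%, 79.1% and 89.7% in control replicates 1, 2 and 3. The difference from control replicates 2 and 3 was -56.0 points. This window had kept 33.7% of the control 2 and 3 level, against 15.5% kept in exon 52. The largest share kept under these limits was 36.2%, in a window of exon 40 (chr15:98846301-98846400).

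Exons of the 4 members with measured exon cytosines showed much the same picture. Kmt2d, the H3K4 methyltransferase of enhancers mutated in Kabuki syndrome in humans, had 70 exon cytosines. Its exons were methylated at 30.2%, 30.7% and 19.1% in cKO replicates 1, 2 and 3, against 19.5%, 84.6% and 85.0% in control replicates 1, 2 and 3. In Kmt2b, the promoter-bound relative of Kmt2a, 36 exon cytosines stood at 34.1%, 31.6% and 19.2% in the cKO libraries, against 28.0%, 86.2% and 87.3% in the controls. The lowest cKO library was replicate 3 in both genes, and the cKO libraries of both genes lay far below control replicates 2 and 3.

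Kmt2a, which maintains Hox gene expression, had 15 exon cytosines at 35.3%, 27.4% and 24.95% in the cKO libraries, against 18.2%, 81.3% and 75.9% in the controls. Kmt2c, the close relative of Kmt2d, had 16 exon cytosines at 41.8%, 33.4% and 28.2% in the cKO libraries, against 26.2%, 83.9% and 83.1% in the controls. In these 2 genes control replicate 1 lay below every cKO library, and in Kmt2b and Kmt2d it lay within the cKO range. Kmt2e, with the fewest CpGs in its exons, had 0 measured exon cytosines of 290 on both strands.

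**Figure D1:**
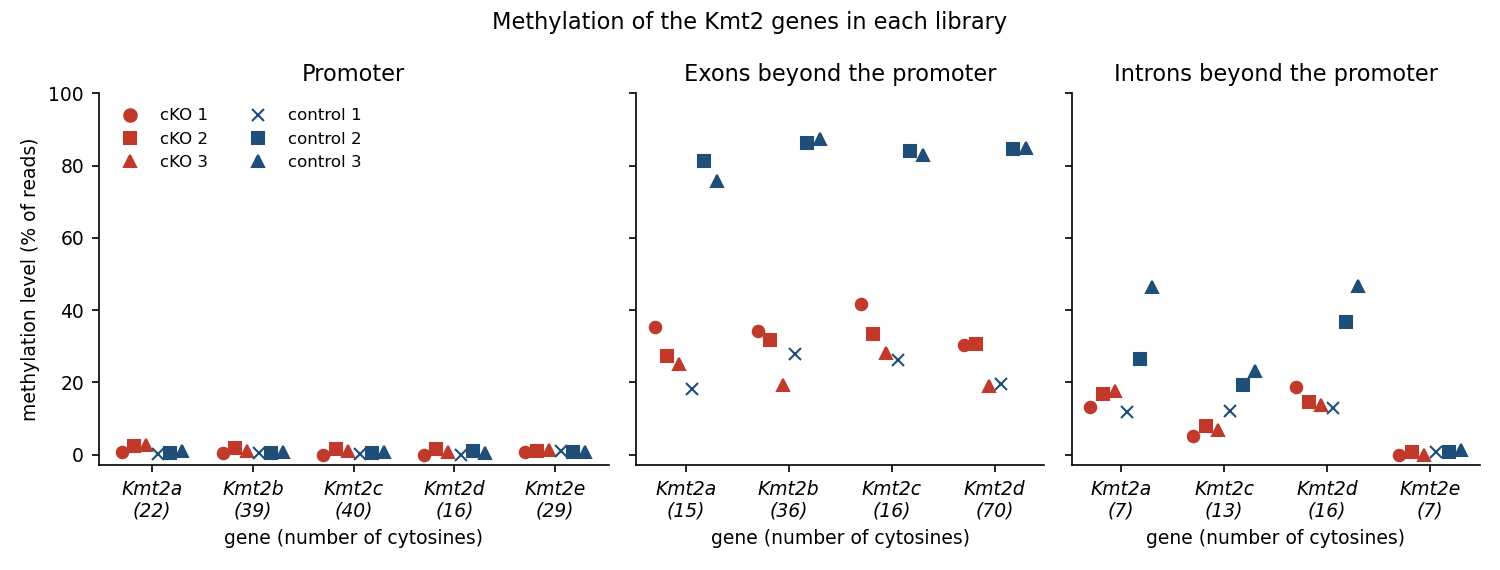
Methylation level (percent of reads) of the promoter, exon and intron regions of each Kmt2 gene, with 1 point per library and the number of cytosines under the gene name; cKO libraries are red and stand left of the controls in blue. Promoters lie between 0 and 2.73% in every library, while in exons control replicates 2 and 3 lie at 75.9% or more and the cKO libraries at 41.8% or less, with control replicate 1 (cross) beside the cKO libraries.

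With all 6 libraries no exon region was called lower by the limits used (Benjamini-Hochberg q under 0.01, group means at least 25 points apart) in the quasi-binomial test, with its dispersion moderated by limma's method, over 30798 autosomal promoter, exon and intron regions. The same held for all of these regions (0% called lower), of which 4053 had an unadjusted p under 0.05, and limma on logit values also called 0. Among the tested Kmt2 regions only the Kmt2b exons passed 0.05 before adjustment (q = 0.352 in this limma-moderated fit). The exon differences were -29.3 points in Kmt2a, -38.9 in Kmt2b and -29.9 in Kmt2c, with control SDs of 34.9, 34.0 and 33.1 points (n = 3). Exact permutation of the library labels, two-sided, gave p = 0.4, p = 0.3 and p = 0.4 for these genes, where 0.1 is the smallest value that 3 against 3 libraries allow.

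Without control replicate 1, the exons of Kmt2a, Kmt2b and Kmt2c were all called lower in cKO. The differences were -49.4 points in Kmt2a (q = 3.02e-06), -58.5 in Kmt2b (q = 4.39e-07) and -49.0 in Kmt2c (q = 3.82e-06) in the quasi-binomial test moderated with limma's empirical Bayes method. Exact permutation gave p = 0.1 for each, again the smallest value possible. These 3 of 3 calls stand beside a background of 55.1% of all 9139 exon regions called lower in the same fit. That background is not like for like. The 3 regions stood at 78.6%, 86.8% and 83.5% in control replicates 2 and 3, while only 5126 of the 9139 reached 50% there. The share called among those 5126 was not taken, so no excess of the family can be read from these calls. All cKO libraries lay below control replicates 2 and 3 in the exons of each of the 4 genes, as they did in 99.6% of the 5126 exon regions at 50% or more in these controls. All 3 controls lay above the cKO libraries in 0 of the 4 genes, against 11.1% of those regions. With each region's own dispersion in place of the moderated one, 0 of the 3 exon regions was called, nor was any other region. Kmt2d exons differed by -58.1 points from control replicates 2 and 3.

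Within the same 5126 exon regions, the differences of Kmt2b and Kmt2d were exceeded by 9.64% and 10.6% of the regions, those of Kmt2a and Kmt2c by 43.1% and 44.6%. The Kmt2d region holds the exon 52 cytosines by which the family was chosen, so its rank is partly set by that choice. The cKO libraries kept 32.6% of the control 2 and 3 level in Kmt2b and 31.5% in Kmt2d, against 37.1% in Kmt2a and 41.3% in Kmt2c and a median of 39.6% over the regions. The median difference over these regions was -47.7 points. With all 3 controls, the differences of Kmt2b and Kmt2d were exceeded by 9.91% and 17.9% of the same regions and those of Kmt2a and Kmt2c by 53.6% and 50.2%, with a median of -29.98 points over the regions. Whether Kmt2b differed from the other members was not tested. Kmt2b and Kmt2d also had the most CpG-rich exons of the family, with 2.70 and 2.77 CpGs per 100 bp, against 2.201 in Kmt2a and 1.18 in Kmt2c, and the part of this in the result was not tested.

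**Figure D2:**
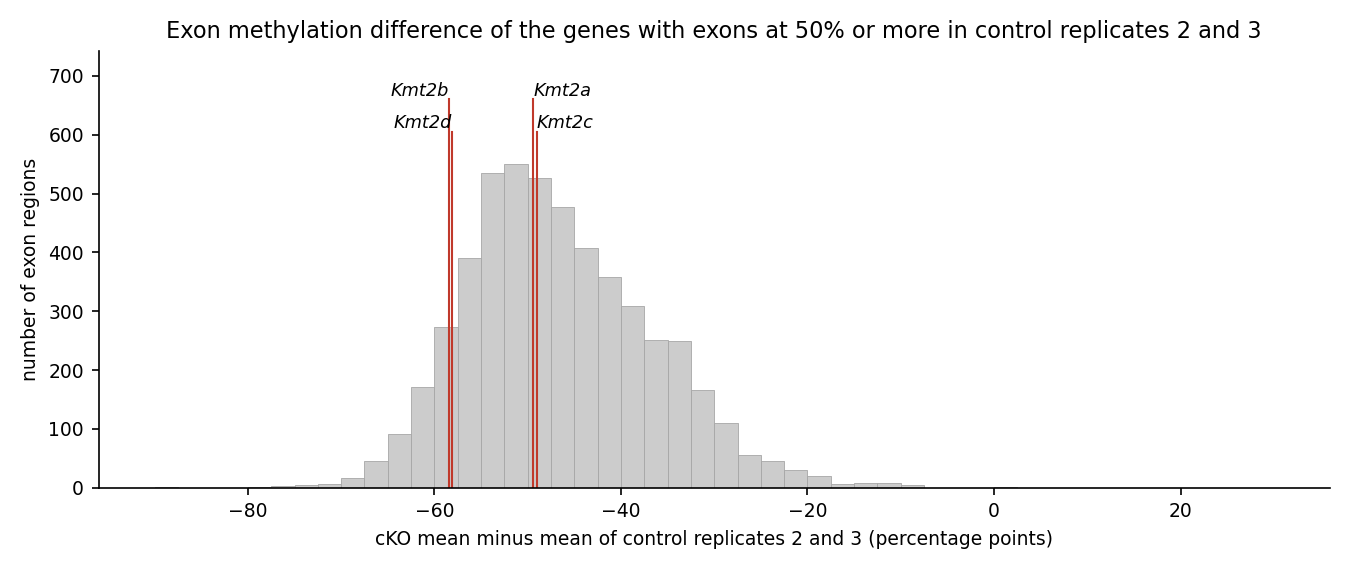
Histogram of the methylation difference, cKO mean minus the mean of control replicates 2 and 3 in percentage points, over the 5126 exon regions at 50% or more in these controls; red lines mark the Kmt2 genes. Kmt2a at -49.4 and Kmt2c at -49.0 lie near the median of -47.7, and Kmt2b at -58.5 and Kmt2d at -58.1 lie towards its left side, within the distribution.

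Within Kmt2d, 14 exons of the longest coding transcript held a measured cytosine, from exon 3 to exon 55. Differences from control replicates 2 and 3 lay between -77.3 points in exon 52 and -43.7 points in exon 12, a long exon of 1082 bp with 3 measured cytosines at 68.2% in control replicates 2 and 3. The best-covered exon, exon 32 with 17 cytosines, stood at 28.3%, 29.2% and 21.6% in the cKO libraries, against 16.9%, 80.2% and 85.4% in control replicates 1, 2 and 3. Exon 40 with 14 cytosines stood at 44.9%, 31.8% and 25.9% in the cKO libraries, against 18.0%, 87.5% and 86.2% in the controls. Exons 53 and 54, the neighbours of exon 52, had higher cKO means of 37.2% (1 cytosine) and 31.7% (3 cytosines). In exon 54, cKO replicate 3 stood at 12.9%, within the cKO range of exon 52 (9.96% to 18.6%). Exon 53 rests on as few as 11 reads, with control replicate 1 at 64.7%, above every cKO library. Since exon 52 was chosen for its extreme value, this contrast is a description only. Replicate 3 was the lowest cKO library in 13 of the 14 exons. This order was not particular to Kmt2d, since the median exon region of 50% or more stood at 34.9%, 33.5% and 25.5% in cKO replicates 1, 2 and 3.

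**Figure D3:**
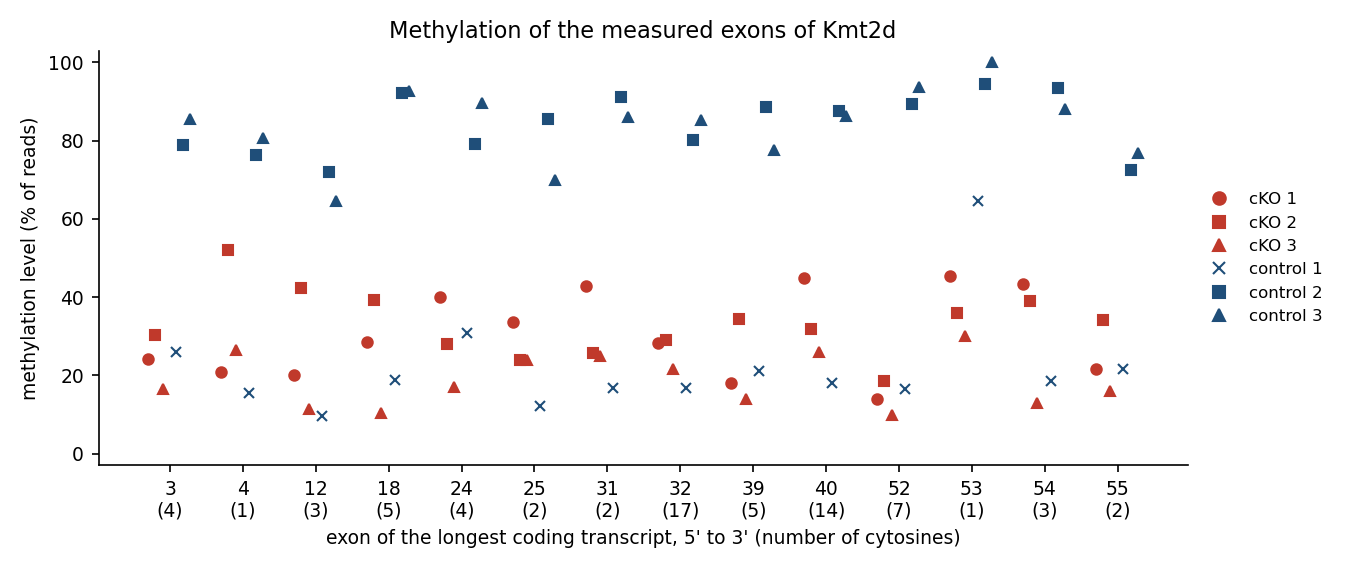
Methylation level (percent of reads) of each measured exon of Kmt2d in each library, 5' to 3', with the number of cytosines in brackets; cKO libraries are red and stand left of the controls in blue. The cKO points lie below control replicates 2 and 3 in every exon shown, and exon 52 has the lowest cKO mean, 14.2%.

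The other members had fewer measured exons. In Kmt2b, 9 exons differed from control replicates 2 and 3 by -64.1 to -48.8 points, the largest difference being in exon 8, which held 11 of the 36 cytosines. The printed Kmt2b window of this exon stood at 27.5%, 28.8% and 20.98% in the cKO libraries, against 27.3%, 95.1% and 93.3% in control replicates 1, 2 and 3. In Kmt2a, the largest difference of 4 measured exons was -62.6 points in exon 7, and the printed window of exon 3 stood at 35.3%, 23.8% and 27.1% in the cKO libraries, against 14.4%, 93.5% and 92.9% in the controls. In Kmt2c, 5 exons, 4 of them among the last of the gene, differed by -65.0 to -44.3 points.

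Promoters, the 1000 bp before and the 500 bp after the annotated 5' end, were almost free of methylation in all 5 genes. Levels lay between 0 and 2.73% in every library, over 16 measured cytosines in Kmt2d to 40 in Kmt2c. The largest difference was in Kmt2a, at 0.750%, 2.25% and 2.73% in the cKO libraries, against 0.275%, 0.517% and 0.840% in the controls, where cKO replicate 1 lay among the controls. This difference of 1.37 points had q = 0.777 in the moderated quasi-binomial fit, and exact permutation gave p = 0.2. In cKO replicate 1, 0 of 1147 reads were methylated at the Kmt2c promoter, which allows a level of up to 0.262% (3 counts), and 0 of 309 at that of Kmt2d, which allows up to 0.971%. These reads are summed over neighbouring CpGs that fragments can share, so the limits cover counting error only and are too narrow where reads are shared. Without control replicate 1, 0 of the 4 tested promoters was called lower, against 4.41% of all 11531 promoters. The sequence of these promoters was CpG-rich, with 8.59 CpGs per 100 bp in Kmt2d to 13.0 in Kmt2c, against 1.18 to 2.77 in the exons of the genes.

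Taken as whole regions, introns gave lower levels and smaller differences than exons, and many of their measured cytosines lay near the 5' end. In Kmt2c, 13 intron cytosines stood at 5.23%, 7.84% and 6.76% in the cKO libraries, against 12.04%, 19.2% and 23.3% in control replicates 1, 2 and 3. Here alone among the exon and intron regions of the family did the groups not overlap with all 6 libraries, which held for 8.74% of all 10128 intron regions; exact permutation gave p = 0.1, the smallest value possible, and q was 0.352 in the moderated quasi-binomial fit. Without control replicate 1, q was 0.00175 but the difference of -14.6 points missed the limit of 25. At cytosines with at least 20 reads, the difference from all 3 controls was 0.20 points, against -11.6 points at 6 reads. The first is the value of 1 window of 5 cytosines near the 5' end (chr5:25497801-25497900), at 0 to 1.93% in every library. The 4 intron cytosines further in had fewer than 20 reads in at least 1 library, so this value does not cover them. Kmt2a introns (7 cytosines) stood at 13.1%, 16.9% and 17.6% in the cKO libraries, against 11.7%, 26.4% and 46.3% in the controls. Without control replicate 1 they had q = 0.0122 in the same fit, also short of a call. Thus 0 of the 3 tested intron regions was called, against 57.8% of all intron regions. Those of Kmt2c and Kmt2e stood at 21.2% and 1.01% in control replicates 2 and 3, so neither could fall by 25 points. Only the Kmt2a introns, at 36.3% there, could have been called. Kmt2d introns (16 cytosines) stood at 18.8%, 14.5% and 13.7% in the cKO libraries, against 12.9%, 36.6% and 46.6% in the controls.

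A limit of 2000 bp from the 5' end, set after the values were seen, separated these cytosines. Between the promoter and this limit, the 26 body cytosines of the family had means of at most 9.58% in cKO and 7.11% in control replicates 2 and 3. Beyond it, the intron cytosines of Kmt2c (4) stood at 25.3%, 39.2% and 39.2% in the cKO libraries, against 40%, 85.7% and 92.7% in the controls. Those of Kmt2d (10) stood at 34.2%, 34.1% and 28.4% in the cKO libraries, against 28.6%, 80.2% and 74.0% in the controls. Those of Kmt2a (3) stood at 28.9%, 29.3% and 25.5% in the cKO libraries, against 24.3%, 57.8% and 78.9% in the controls. In Kmt2c the difference of these introns from control replicates 2 and 3 was larger than that of its exons (-54.6 against -49.0 points). It was smaller in Kmt2a (-40.5 against -49.4), Kmt2d (-44.8 against -58.1) and the 1 such cytosine of Kmt2b (-36.9 against -58.5). All measured intron cytosines of Kmt2e, 7 within 682 bp of its 5' end, averaged 0.253% ± 0.439 in cKO and 0.862% ± 0.314 in controls (SD, n = 3 each), so the body of Kmt2e beyond that was not measured. With promoters taken to 2000 bp downstream, an alternative added after seeing the data, the introns of Kmt2a and Kmt2c were called lower as well without control replicate 1, so that 5 of the 9 regions then tested in the family were called, beside 43.4% of all 28512 regions.

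**Figure D4:**
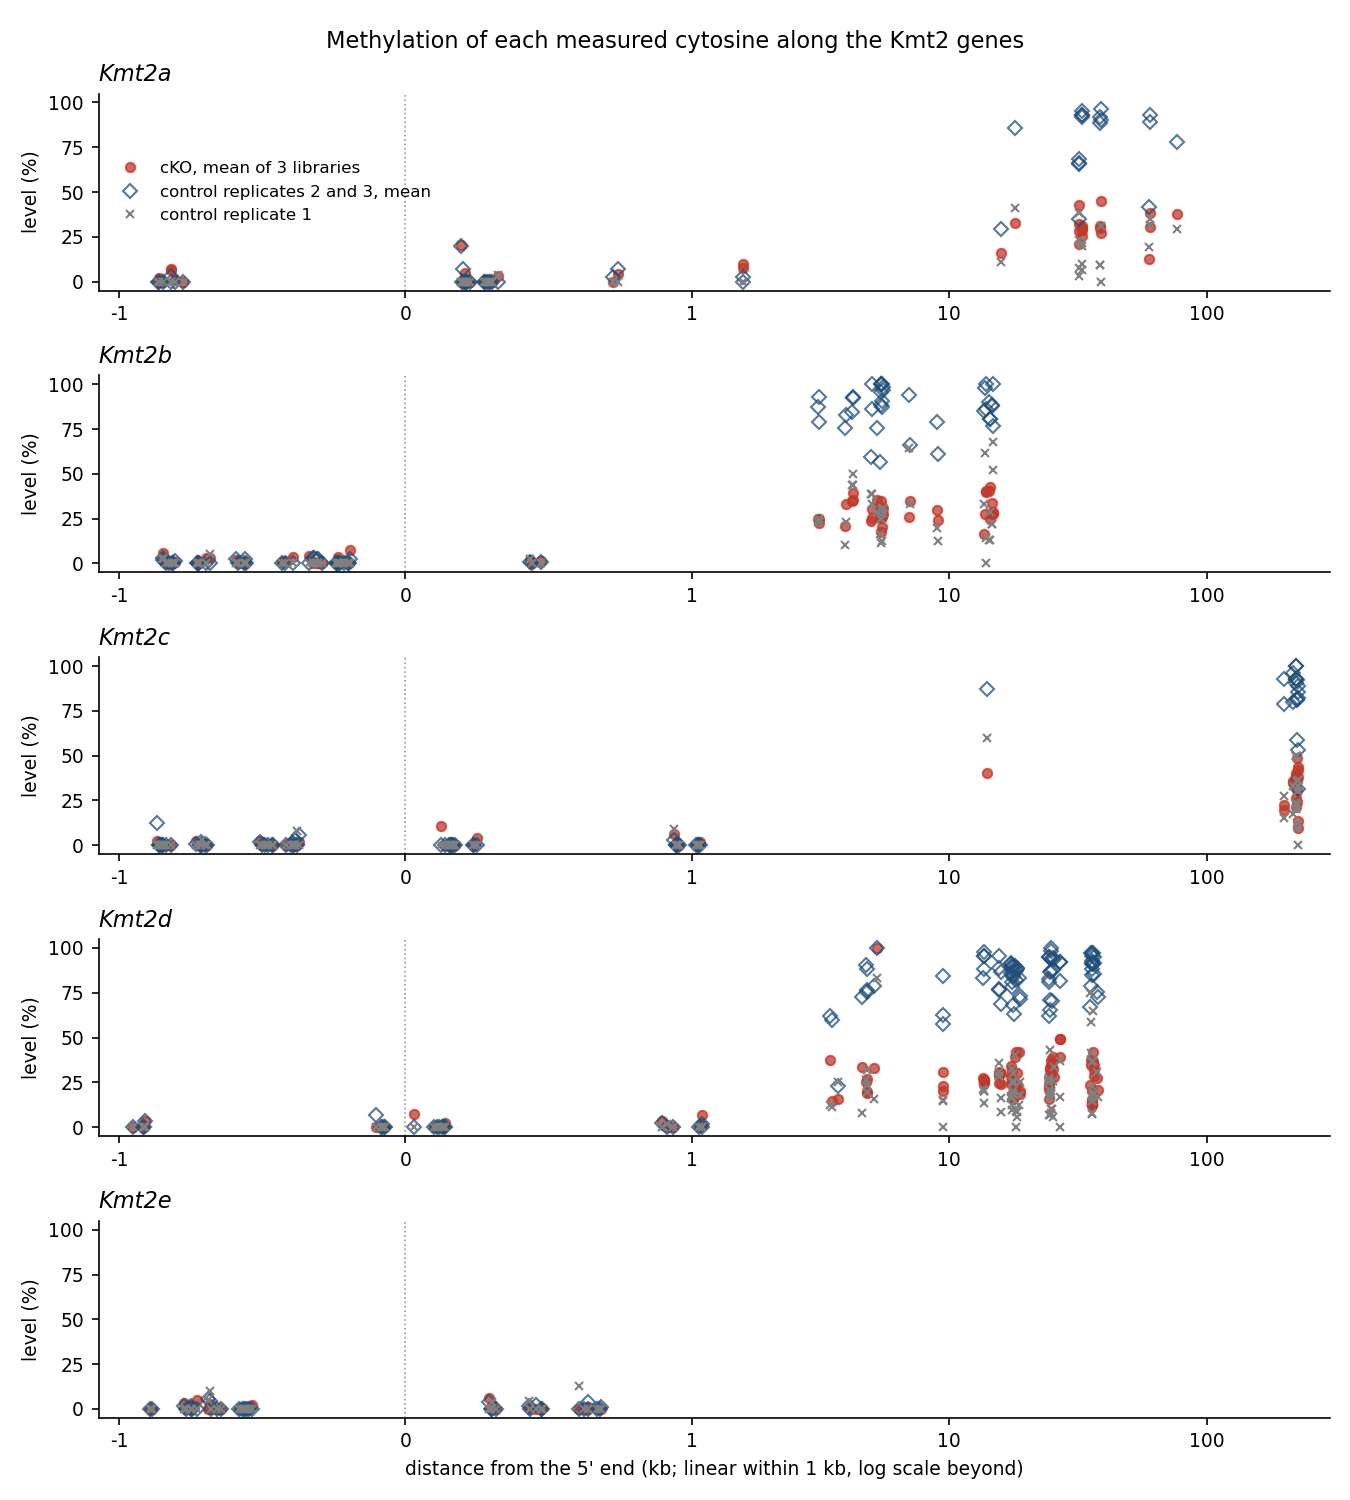
Methylation level (percent) of each measured cytosine against its distance from the 5' end in kb (linear within 1 kb, log scale beyond), as the mean of the 3 cKO libraries (red circles), the mean of control replicates 2 and 3 (blue diamonds) and control replicate 1 (grey crosses). Cytosines within 2 kb average at most 9.58% in cKO beyond the promoter, and further into the genes most diamonds stand above the circles, with 1 Kmt2d cytosine at 100% in both.

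Of the single cytosines of Kmt2a, Kmt2b and Kmt2c at 50% or more in control replicates 2 and 3, 69 of 71 had every cKO library below both of these controls, against 92.7% of 161382 such cytosines in the bodies of all genes. In Kmt2d 78 of 79 did. The exception in Kmt2d was an intron cytosine 5227 bp from the 5' end (chr15, position 98865977). It was methylated in 14 of 14, 12 of 12 and 16 of 16 reads of cKO replicates 1, 2 and 3, against 5 of 6, 16 of 16 and 29 of 29 reads of control replicates 1, 2 and 3. The exact (Clopper-Pearson) 95% interval of the shallowest cKO library runs down to 73.5% and covers counting error only.

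Of 12 CpGs of the gene bodies with the cytosines of both strands measured, 8 in Kmt2b, Kmt2c and Kmt2d exons averaged 50% or more in control replicates 2 and 3. The strands of these 8 CpGs differed on average by 15.5 points within a cKO library and by 12.4 points within control replicate 2 or 3. Counting error on each strand adds to these absolute gaps, and its share was not taken out. Whether the groups differed in this gap was not tested.

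In 100 bp windows, the region length of the study, 0 of 74 windows of Kmt2a, Kmt2b, Kmt2c and Kmt2e was called lower with all 6 libraries, as in all 280595 windows (0% called, 42265 with an unadjusted p under 0.05; limma on logit values also called 0). Without control replicate 1, 34 of the 74 (45.9%) were called lower, against 44.3% of all windows: 7 of 17 in Kmt2a, 16 of 27 in Kmt2b, 11 of 20 in Kmt2c and 0 of 10 in Kmt2e. The share over all windows was thus near the background, but 28 of the 74 were promoter windows. Those stood at 19.6% or less in control replicates 2 and 3 and could not fall by 25 points, so all 34 lay beyond the promoters. Of the 36 body windows at 50% or more in these controls, 33 were called, against 74.0% of the 165155 autosomal windows at that level. This contrast was not tested, and neighbouring windows are not independent. The count of 34 became 15 (20.3%, beside 18.2% of all windows) when control replicate 2 and 20 (27%, beside 25.2%) when control replicate 3 was left out as well. It was 0 with each window's own dispersion or with the replicate number as a block, as over all windows. Windows of Kmt2d are left out of these counts, because the family was chosen by a value of this gene. The 36 body windows of Kmt2d at 50% or more in control replicates 2 and 3 had a median difference of -52.2 points. Their differences from these controls ran from -77.3 points, in the window by which the family was chosen, to 0.

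Genes whose exon levels over the 6 libraries came closest to those of Kmt2d were H2-DMa, Vps52, Slc26a2, 2310011J03Rik and Ctu2, by root mean square difference over the 6 libraries among 3756 genes with enough cytosines and reads. Their distances were 1.45, 1.46, 1.98, 2.01 and 2.09 points, against a median of 26.8 points. Within the family, Kmt2b was the nearest to Kmt2d at 4.01 points, with 2.08% of genes closer, followed by Kmt2a at 5.25 (5.24% closer) and Kmt2c at 6.77 points (10.9% closer).

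Other genes of H3K4 methylation were read from a list of 29, of which 15 had a measured autosomal exon region, 17 an intron region and 20 a promoter. With all 6 libraries 0 of these regions was called in the moderated quasi-binomial test. Without control replicate 1, 10 of the 15 exon regions (66.7%) were called lower and 0 higher, beside the 55.1% of all exon regions, as were 6 of the 17 intron regions (35.3%, beside 57.8%) and 0 of the 20 promoters. None of these promoters could be called lower, since the highest, that of Psip1, stood at 16.4% in control replicates 2 and 3. The median exon difference of the list was -33.7 points, against -33.6 over all exon regions, both from control replicates 2 and 3, and -21.1 against -20.7 points from all 3 controls. The exons of Setd1b, which encodes a catalytic subunit of a related H3K4 complex, stood at 30.4%, 27.9% and 19.7% in the cKO libraries, against 21.6%, 70.1% and 72.5% in control replicates 1, 2 and 3. Those of its paralogue Setd1a stood at 18.4%, 13.2% and 15.0% in the cKO libraries, against 11.9%, 47.3% and 45.3% in the controls. Exons of Kdm2b, a CXXC-domain demethylase, averaged 16.9% in cKO and 50.6% in control replicates 2 and 3, with control replicate 1 at 17.1%. Introns of Smyd3, a SET and MYND domain methyltransferase, averaged 30.0% in cKO and 68.6% in control replicates 2 and 3, with control replicate 1 at 27.1%. Kdm2b introns, the uncalled region with the most reads, averaged 14.9% in cKO and 38.1% in control replicates 2 and 3, a difference of -23.2 points, with control replicate 1 at 14.8%.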

How the data were processed

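Ox-RRBS libraries of the E16 cortex, 3 cKO and 3 control, were analysed. The authors aligned reads with Genomatix software without mismatches to GRCm38, dropped thinly covered positions and used methylKit. The deposited files list, per cytosine, the number of reads (a count) and which percent of them were C or T; these deposited percent values are not normalised between libraries, and libraries were not pooled. Methylated reads were recovered as coverage times percent.

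Cytosines with at least 6 reads in all 6 libraries were assigned to promoters (1000 bp before to 500 bp after the 5' end), exons and introns of protein-coding genes (GENCODE M21). Methylated and unmethylated reads were summed per region (at least 3 cytosines) and per 100 bp window of the autosomes. Groups were compared in a binomial model by a quasi-binomial F test with Pearson dispersion moderated by limma's empirical Bayes method (prior from features of 5 to 95 percent pooled methylation, floor of 1) and Benjamini-Hochberg adjustment over all features. A call required q under 0.01 and 25 points. The code used scipy 1.17.1, numpy 2.4.6 and pandas 2.3.3 (Python 3.11.15). The moderation was checked against limma 3.58.1 in R 4.3.3 for the region fit without control replicate 1. The test was also run on simulated reads that held no outlying library, so that run does not represent the fit with all 6 libraries. Figures used matplotlib 3.10.9. Intervals cover counting error only: half-widths per library were at most 5.82 points for exons, 7.12 for introns and 2.24 for promoters (exact, 95%).

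The members and gene lists were chosen with earlier results of these data known. Named were all regions of the 5 genes and, beyond the promoter, the windows of largest and smallest difference. Such windows needed at least 4 cytosines, 50 reads in every library and a mean of at least 50% in control replicates 2 and 3. Kmt2c and Kmt2e had 0 of them. Also named were the 5 genes nearest to Kmt2d (at least 10 exon cytosines and 200 reads), and by reads up to 4 called genes and 1 uncalled of the H3K4 list. Its 4 genes on X or Y were not tested. Alternatives were coverage minima of 10 and 20 reads, other thresholds, tests, dispersions, exon sets and windows, all nuclear chromosomes, the replicate number as a block and omission of each library. Replicate numbers were not treated as pairs in the main tests, and whether they mark pairs was not settled.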

Additional observations from a re-analysis of the deposited data

How the results depend on the processing

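The Kmt2 exon differences kept their direction under every alternative run. With all 6 libraries, 0 of 10 regions of Kmt2a, Kmt2b, Kmt2c and Kmt2e were called. This count became 3 under the plain binomial test, which ignores the spread between libraries (24.9% of all regions called). It lay between 0 and 3 when 1 library was left out, the 3 being without control replicate 1 (30%, beside 37% of all regions). Of the 74 windows, 30 were called under the plain binomial test (40.5%, beside 37.4% of all windows). From 0 to 34 were called when 1 library was left out, the 34 being without control replicate 1 (45.9%, beside 44.3%). Once control replicate 1 was left out, the 3 called regions became 0 with each region's own dispersion, as over all regions. They became 5 of 9 with the promoter taken to 2000 bp downstream (55.6%, beside 43.4% of all regions), an alternative added after seeing the data. They were 3 or 4 of 10 when another library was also left out, beside 27.2% to 36.9% of all regions. The 34 windows became 11 of 29 at 20 reads (37.9%, beside 55.8% of all windows), 7 of 33 with at least 3 cytosines (21.2%, beside 28.2%), 0 with each window's own dispersion, and 15 to 31 when another library was also left out, with 15 without control replicate 2 and 20 without control replicate 3 (18.2% and 25.2% of all windows).

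A change of sign was seen in 2 region differences. The Kmt2c introns changed at a coverage of 20 reads (0.20 points), where only cytosines near the 5' end were left. The Kmt2d promoter lay at -0.074 to 0.66 points when 1 library was left out, lowest without cKO replicate 2. With the replicate number as a block, 0 regions and 0 windows were called with all 6 libraries, as over all genes and windows. Without control replicate 1, 3 regions of the family were called (30%, beside 37.5% of all regions). The windows called were then 0 in the family and 0 over all windows. The deviations of same-numbered libraries had correlations of -0.10, 0.02 and -0.09 over 201455 windows. Those of libraries with unlike numbers ran from -0.10 to 0.14. With control replicate 1 so far from the other controls, these correlations cannot show whether the numbers mark pairs. Leaving out 1 library moved the median exon difference of the 3 tested genes between -49.4 and -20.2 points, the first without control replicate 1. Single cytosines may rest on as few as 6 reads.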
